A study of Rattus norvegicus with 16 samples.

Results

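The genes described here encode the motors that carry cargo along microtubules: kinesins and their light chains, cytoplasmic dynein, its cofactor dynactin, and the mitochondrial adaptors Trak1 and Trak2. They were chosen by symbol, as protein-coding rows of the RNA immunoprecipitation (RIP) table whose name begins with Kif and a digit, Klc and a digit, Dync, Dynl or Dctn, or is Trak1 or Trak2. This gave 35 of the 8671 genes in that table, of which 8420 are protein-coding. The rule also takes Kif1bp, a protein that binds kinesins and is not itself a motor.

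The study profiled N4-acetylcytidine (ac4C), an acetyl mark on the cytosine of RNA, in spinal dorsal horn of rats, where pain signals from the body enter the central nervous system. Fragments carrying the mark were pulled down with an ac4C antibody kit (IP) and sequenced beside total RNA (input), in 3 pairs from normal rats and 3 pairs from rats with bone cancer pain. Each pair has 1 deposited list of called peaks. A further 2 IP and 2 input libraries from rats with bone cancer pain stand behind the RIP table. All 16 libraries carry the genotype label WT. The labels give no sex, age, strain, tumour cells or time after tumour inoculation, and do not say whether a replicate was 1 animal or a pool. The lists of the pain group carry the abbreviation CFA in one label and CIBP in another, and the groups are used here as the sample titles give them. The RIP libraries share the ac4C kit protocol of the others, and no other target is named, so what was pulled down there is not settled by the labels.

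Axons and dendrites are too long to be supplied by diffusion. Most kinesins walk towards the plus ends of microtubules, which in axons point away from the cell body, and carry vesicles, mitochondria and RNA granules outwards. Cytoplasmic dynein, working with dynactin, walks the other way and returns organelles and signalling endosomes, and mutations in several of these genes cause disease of motor and sensory neurons.

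Every gene in the RIP table had already passed the authors' threshold (the lowest log2 fold in the authors' deposited table was 1.01), so a symbol without a row may have been low, not enriched or not listed. All 5 listed cytoplasmic dynein 1 subunits, all 6 dynactin subunits with a Dctn symbol, all 3 kinesin-1 motors and both mitochondrial adaptors had rows. None of the 11 symbols of mitotic kinesins searched for had one, and neither did any of the 8 markers of dividing cells. The same held for the 4 symbols searched for subunits specific to the dynein of cilia and for the 7 markers of ciliated ependymal cells. Rows were looked up by these symbols only, so a gene listed under another name would be missed. Of markers for the labelled tissue, 7 of 10 dorsal horn neuron genes, 5 of 8 spinal Hox genes, 3 of 5 general neuron genes, 6 of 6 oligodendrocyte genes, 5 of 5 astrocyte genes and 3 of 5 microglial genes had rows. Of markers of neighbouring tissue, 1 of 5 sensory ganglion genes (Prph) and 0 of 4 muscle genes did.

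Peaks were counted at a false discovery rate (FDR) of at most 0.05. This limit matters for list 1 of bone cancer pain, which holds 50417 peaks as deposited and 919 at the limit. The other 5 lists hold 1173 to 2416 as deposited and 899 to 1240 at the limit. Read totals of the libraries are not given in the sources used here, so the depth behind a peak is unknown, and a gene without a peak is a gene not called, which does not show that it lacks the mark. The lists cannot separate fewer cells of a type from less RNA per cell.

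Peaks lay in transport genes more often than in protein-coding genes at large, in every list. At least 1 peak was called in 23 of the 35 genes (65.7%), against 37.4% of protein-coding genes in the table. A peak in at least 2 of the 6 lists was called in 15 genes (42.9%, against 12.8%), and in at least 3 lists in 8 genes (22.9%, against 3.86%). These 8 were Kif5a, Kif1a, Kif1c, Trak1, Trak2, Kif5c, Kif21a and Kif21b. Kif5a, a kinesin-1 heavy chain made in neurons, had a peak in 6 of 6 lists, which 8 of the 8420 protein-coding genes did. Kif1a, which carries precursors of synaptic vesicles, had one in 5 of 6.

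Peaks were also called more often in genes with a higher input signal. In the RIP inputs, 31 of the 35 genes had a mean input signal at or above the median of the table. The unit of that signal is not stated, so its order between genes may not be one of abundance. Among protein-coding genes above that line, 20.0% had a peak in at least 2 lists, against 41.9% of the 31 transport genes (13 genes). The part of abundance or transcript length in the remaining difference was not tested. That comparison was added after the data had been seen.

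**Figure D1:**
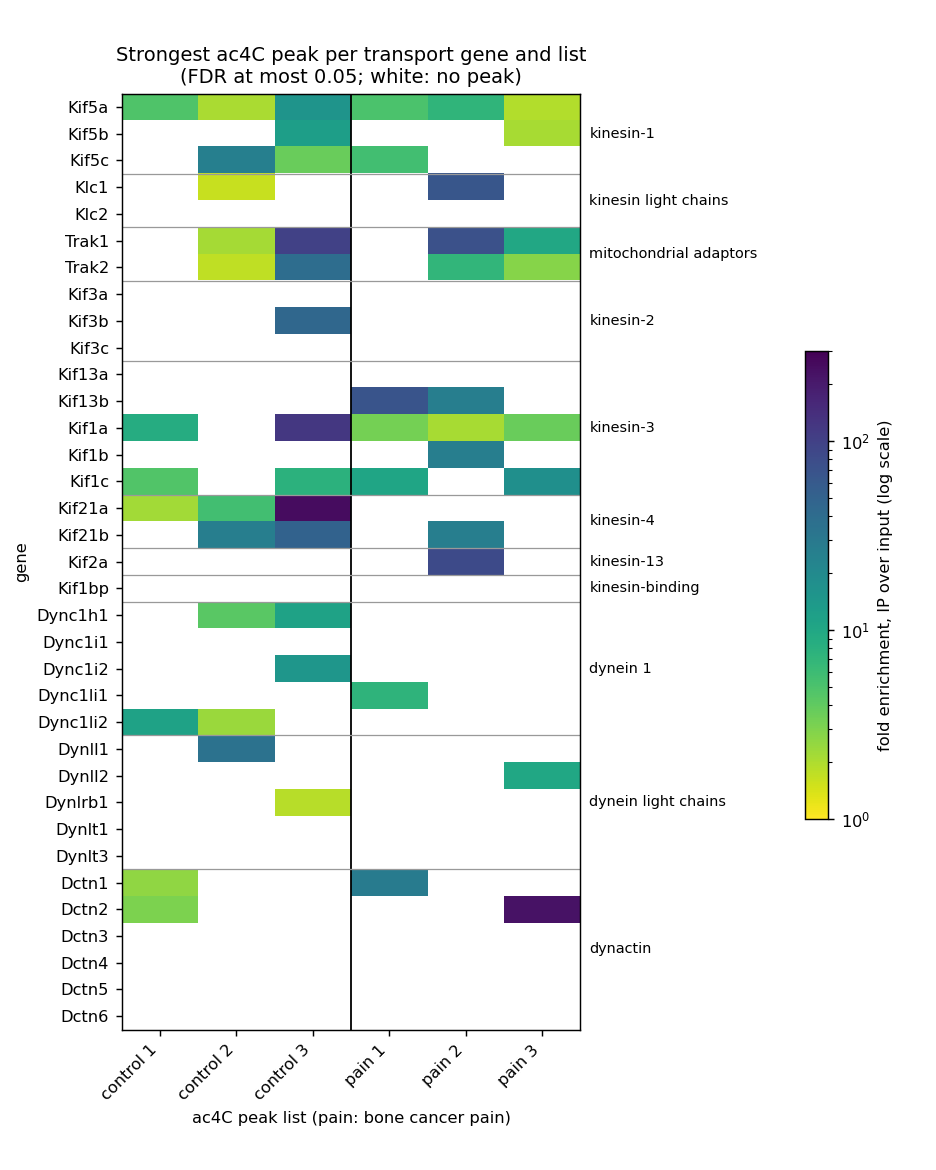
Strongest ac4C peak of each transport gene in each of the 6 peak lists. Rows are genes grouped by role, columns are lists, and a filled cell gives the fold enrichment of IP over input that the authors assigned to that peak. Kif5a is filled in all 6 columns, and Kif21a in the 3 control columns alone.

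Control and pain lists called similar numbers of transport genes. In control lists 1, 2 and 3 a peak was called in 7, 10 and 13 of the 35 genes (20.0%, 28.6% and 37.1%), against 8.33%, 9.79% and 9.45% of protein-coding genes. In lists 1, 2 and 3 of bone cancer pain it was called in 7, 9 and 8 genes (20.0%, 25.7% and 22.9%), against 8.68%, 11.5% and 7.97%. The mean was 10 ± 3 genes per control list and 8 ± 1 per pain list (SD, n = 3 lists each), and the ranges overlap: control lists 2 and 3 lie above every pain list, and control list 1 equals the lowest of them.

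**Figure D2:**
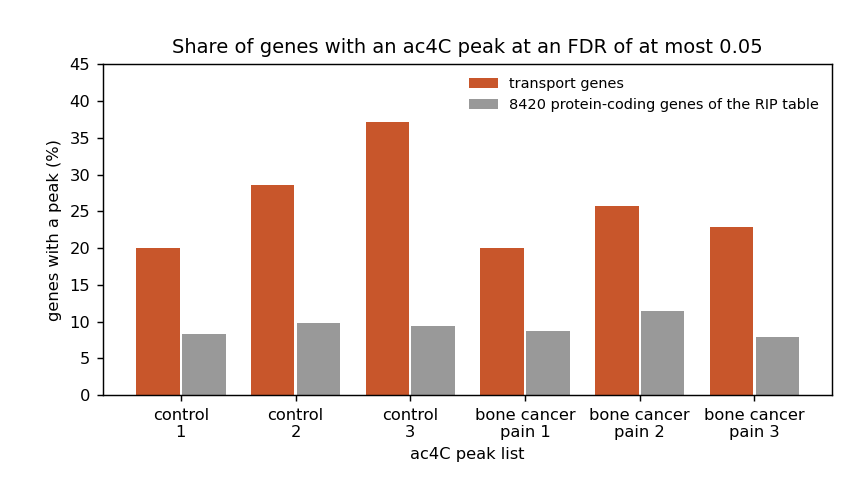
Share of genes with an ac4C peak (percent) in each of the 6 lists, for the 35 transport genes and for the 8420 protein-coding genes of the RIP table. The transport genes lie between 20.0% and 37.1% and the protein-coding genes between 7.97% and 11.5%.

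Over all pairs of a gene and a list, a peak was called in 28.6% for control and 22.9% for pain among the transport genes, and in 9.19% and 9.37% among protein-coding genes. With every deposited peak counted, the shares were 33.3% and 39.0% among the transport genes. Among protein-coding genes they were 13.1% and 37.4%, since pain list 1 then calls most genes. The order of control and pain among the transport genes then turned, and their pain share lay close to that of protein-coding genes. Both the order and the excess in pain thus depend on the FDR limit.

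Few genes were called in one group alone. A peak in at least 2 of 3 control lists was called in 10 genes (28.6%, against 3.95% of protein-coding genes), and in at least 2 of 3 pain lists in 6 genes (17.1%, against 4.05%). Dync1h1, Dync1li2 and Kif21a met the first condition with no peak in any pain list (8.57%, against 1.75%). Kif13b, a kinesin that carries membrane and signalling cargo, met the second with no peak in any control list (2.86%, against 1.82%). For a single gene, 3 lists against 0 cannot go below p = 0.10 and 2 against 0 cannot go below p = 0.40 by a two-sided Fisher's exact test, so none of these contrasts can pass a test.

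The count of genes called in control alone depended on the lists used. Without control list 2 it was 1 gene (Kif21a). Kif13b was not called in pain alone once pain list 1 or pain list 2 was left out. The 10 genes of the control group became 4 without list 2 and 3 without list 3. The 6 of the pain group became 3 without list 2 or without list 3. With a list left out, a gene still needed 2 lists of that group, so these counts could only fall or stay the same. The same counts over protein-coding genes were not computed. With every deposited peak counted, 4 genes were called in pain alone (Kif13b, Kif2a, Kif3a and Kif3c; 11.4%, against 11.6% of protein-coding genes) and 3 in control alone (Dync1li2, Dynll1 and Kif21a; 8.57%, against 0.76%). In that setting pain list 1 held a peak for 18 of the 35 genes (51.4%) and for 81.8% of protein-coding genes.

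Kinesin-1 moves mitochondria, vesicles and cytoskeletal cargo, and its 3 heavy chains all had peaks in both groups. The folds below are the authors' own values for each peak, and serve only to describe a peak within its list. For Kif5a the strongest peak had a fold of 4.84, 2.07 and 15.6 in control lists 1, 2 and 3, and 5.08, 7.21 and 1.94 in pain lists 1, 2 and 3. No list lacked a Kif5a peak, and the ranges of the 2 groups overlap. Kif5b, the heavy chain found in most cell types, had a peak of fold 12.3 in control list 3 and one of 2.11 in pain list 3. Kif5c, the other neuronal heavy chain, had peaks of fold 25.4 in control list 2, 3.72 in control list 3 and 5.63 in pain list 1. Its 5 peaks fell in 5 different places.

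The light chains join kinesin-1 to its cargo. Klc1 had a peak of fold 1.63 in control list 2, the lowest fold of all peaks in these genes, and its strongest in pain list 2 at 65.3. The Klc1 peaks of the 2 lists did not overlap. Klc2 had no peak in any list.

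Trak1 and Trak2 hold mitochondria to kinesin-1 and dynein, and each had a peak in 2 control and 2 pain lists. The strongest Trak1 peaks had folds of 2.17 and 100 in control lists 2 and 3, and 73.2 and 9.75 in pain lists 2 and 3. The strongest Trak2 peaks had folds of 1.72 and 39.1 in the same control lists and 6.97 and 2.80 in the same pain lists. Control list 1 and pain list 1 had no peak at the limit for either gene.

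The place of the Trak1 peaks differed between groups at the FDR limit. Control lists 2 and 3 shared a peak on chromosome 8 (rn6, plus strand) at 130078127-130080963, with folds of 2.17 and 83.7. Pain lists 2 and 3 shared another at 130093619-130103719, with folds of 73.2 and 9.75. Above the limit, pain list 2 also held a peak over the control place (130080120-130082630, fold 10.5, FDR 0.127), so that place was not particular to control once all deposited peaks were counted. No place of the Trak2 peaks was shared by any pair of lists: its 5 peaks lay in 5 places along 32.9 kb of chromosome 9.

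The kinesin-3 family carries synaptic and dense core vesicles. Its 5 genes were called in 4 of 15 gene-list pairs in control and 8 of 15 in pain (26.7% and 53.3%, against 9.19% and 9.37% of protein-coding genes), a contrast that was not tested. With all peaks as deposited the counts were 5 and 11 (33.3% and 73.3%, against 13.1% and 37.4% of protein-coding genes). Kif1a had a peak of fold 8.82 in control list 1, 4 peaks in control list 3 with the strongest at 119, and 1 peak in each pain list at 3.27, 2.13 and 3.72. Control list 2 had no peak. Kif1c had strongest folds of 4.68 and 7.61 in control lists 1 and 3 and of 10.6 and 17.7 in pain lists 1 and 3. Each list has its own IP and input, so folds are not ordered between the groups.

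Kif13b, called in pain alone, had folds of 68.0 in pain list 1 and 26.1 in pain list 2, at places that did not overlap. The value in pain list 2 is shared by 102 peaks of that list with the same FDR of 0.00102, the strongest Kif1b peak and the Kif21b peak among them, so these peaks cannot be ranked against each other. Kif1b, which carries mitochondria and synaptic vesicle precursors, was called in that list only. Kif13a had no peak at the limit.

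The kinesin-4 motors Kif21a and Kif21b, which move in axons and dendrites and restrain microtubule growth, were called in 5 of 6 gene-list pairs in control and 1 of 6 in pain (83.3% and 16.7%, against 9.19% and 9.37% of protein-coding genes). This contrast of 2 genes was not tested. With all peaks as deposited the counts were 5 and 2 (83.3% and 33.3%, against 13.1% and 37.4% of protein-coding genes). Kif21a had strongest folds of 2.20, 5.59 and 251 in control lists 1, 2 and 3, the last being the highest of all 70 peaks in these genes, and no peak in a pain list. Kif21b had folds of 26.1 in control list 2, 50.2 in control list 3 and 26.1 in pain list 2. Within their lists, the same fold and FDR were held by 60, 16 and 102 peaks, in that order. Of all 70 peaks, 21 shared their fold and FDR with at least 1 other peak of their list. Of the kinesin-2 motors, which carry cargo in axons and cilia, Kif3b had a peak in control list 3 and Kif3a and Kif3c had none. The Kif3b fold of 44.7 was held by 26 peaks of that list at the same FDR. Kif2a, a kinesin-13 that takes microtubules apart at their ends, had a peak in pain list 2. Its fold of 83.6 was held by 7 peaks of that list at the same FDR. Kif1bp had none.

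The 5 genes of cytoplasmic dynein 1 were called in 5 of 15 gene-list pairs in control and 1 of 15 in pain (33.3% and 6.67%, against 9.19% and 9.37% of protein-coding genes). With all peaks as deposited the counts were 6 and 4 (40.0% and 26.7%, against 13.1% and 37.4% of protein-coding genes). The contrast was not tested. Dync1h1, the heavy chain that contains the motor domain, had strongest folds of 4.35 and 11.2 in control lists 2 and 3. It had no peak at the limit in a pain list, although pain lists 1 and 2 held peaks for it just above (FDR 0.0562 and 0.0692). The light intermediate chain Dync1li2, which links dynein to cargo adaptors, had folds of 11.1 and 2.37 in control lists 1 and 2 and no peak in any pain list, with or without the limit. The other light intermediate chain, Dync1li1, had its peak in pain list 1 (fold 7.33). Of the intermediate chains, which bind dynactin, Dync1i2 had a peak in control list 3 (fold 14.9) and Dync1i1 had none. The counts of this complex therefore rest on a few lists, and leaving out control list 2 takes away the calls of both Dync1h1 and Dync1li2.

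Dynein light chains, small subunits that several other complexes share, had a peak in 1 list each or in none. Dynll1 had one in control list 2 (fold 35.2), Dynlrb1 in control list 3 (1.86) and Dynll2 in pain list 3 (9.93), while Dynlt1 and Dynlt3 had none.

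Dynactin holds dynein on its cargo and its track. Dctn1, the subunit that binds microtubules and dynein, had a fold of 2.56 in control list 1 and a strongest fold of 27.7 in pain list 1. Dctn2, or dynamitin, had folds of 3.08 in control list 1 and 225 in pain list 3. In each gene the control and pain peaks lay at different places, and each group had a peak in 1 list. The other 4 Dctn genes, Dctn3, Dctn4, Dctn5 and Dctn6, had no peak in any list. Dynactin subunits without a Dctn symbol fall outside the symbol rule and are counted among the adaptors below. Of its actin-related proteins, Actr1b had a peak in 1 control and 1 pain list, Actr10 in 1 control list, and Actr1a had none.

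Few peaks recurred at the same place. The 70 peaks in these genes fell in 62 places, counting peaks as shared when their exon blocks overlapped by at least 1 bp on the same strand, and 7 places were shared by at least 2 lists. Of these, 4 were shared by control lists alone, 1 by pain lists alone and 2 by both groups. The same counts over all peaks of the lists were not made, so this may not be particular to these genes. The place shared by the most lists was in Kif5a on chromosome 7 (rn6, minus strand) at 70513673-70513972, in control list 1 and pain lists 1 and 3, with 61 to 180 bp in common. It was the most 3′ of the Kif5a peaks, whose 6 places spread along 39.2 kb. The other place in both groups was in Kif1a on chromosome 9 (minus strand) at 100205482-100207872, in control list 3 and pain list 1. Control lists 1 and 3 shared places in Kif1a (100229138-100253490), Kif1c (chromosome 10, plus strand, 57345625-57346780) and Kif21a (chromosome 7, minus strand, 132099464-132101636). A gene called in several lists was thus mostly called at different places along its transcript, as in Kif1a, whose 8 peaks fell in 6 places over 76.6 kb. No annotation of the rn6 build was used here, so peaks are not assigned to coding sequence or untranslated regions.

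**Figure D3:**
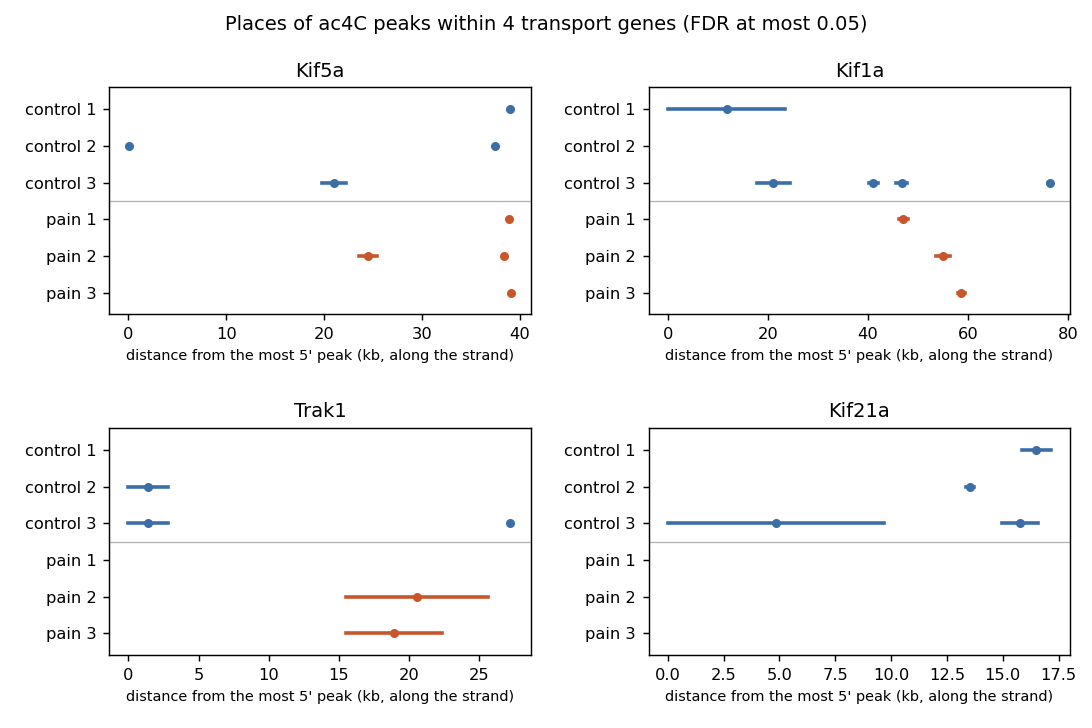
Position of the ac4C peaks within Kif5a, Kif1a, Trak1 and Kif21a. The horizontal axis is the distance along the strand (kb) from the most 5′ peak of each gene, rows are the lists, dots mark the middle of a peak, lines run from the start to the end of a peak with introns included, and colours mark control and pain lists. Kif5a shows the place shared by 3 lists at its 3′ end.

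The peaks in these genes had lower folds within their lists and were more often split over exons. Their median fold was below that of all peaks in 6 of 6 lists: 4.68, 2.27 and 14.9 against 15.6, 16.3 and 22.3 in control lists 1, 2 and 3, and 6.42, 7.21 and 6.74 against 16.9, 20.9 and 28.7 in pain lists 1, 2 and 3. Of the 70 peaks, 54 (77.1%) consisted of more than 1 exon block, against 54.3% of all peaks, at the same median width of 180 bases. These are descriptions of the lists, without a test. Only the fold was compared, and a low fold can go with a very small FDR. All peaks here include those in genes without a protein-coding row in the RIP table.

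In the RIP libraries all 35 genes had more IP than input signal in both pairs, and all 35 passed an FDR of 0.05 in the authors' deposited table (8417 of the 8420 protein-coding genes in it did, 100.0% after rounding). No header or label states the unit of the signal. Levels are therefore compared within a gene, apart from the split of genes by mean input signal given above. The median log2 fold of IP over input in the authors' deposited table was 2.44 for the 35 genes and 2.40 for the protein-coding genes. Of the 35, 18 (51.4%) lay above the median of the protein-coding genes, against 50.0% by definition. As a set they were therefore placed like the table as a whole, while single genes lay near both of its ends.

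Trak2 stood highest. Its signal was 7.56 and 7.69 in the inputs and 87.5 and 91.7 in the IPs, a log2 fold of 3.55 in the authors' deposited table, at the 99.6th percentile of the protein-coding genes, with an FDR listed as 0. Trak1, its paralogue, had inputs of 7.02 and 7.61 and IPs of 21.1 and 20.7. Its log2 fold in the authors' deposited table was 1.51, among the 5 lowest of the 35 genes. The mitochondrial adaptors thus lay near opposite ends of the enrichment seen among these genes.

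Dynlt1, a Tctex-type light chain, followed Trak2, with inputs of 3.73 and 3.32, IPs of 26.9 and 29.8 and a log2 fold of 3.01 in the authors' deposited table. Kif5b had inputs of 13.6 and 16.4, IPs of 116 and 119 and a log2 fold of 2.97 in the authors' deposited table. Kif13b (inputs 2.32 and 3.07, IPs 20.3 and 20.8) and Kif13a (inputs 1.40 and 1.47, IPs 10.1 and 10.4) had log2 folds of 2.93 and 2.83 in the authors' deposited table. In each of these genes both IP values were above both inputs by far more than the replicates differed.

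At the lower end stood 3 dynein light chains. Dynlt3, the other Tctex-type chain, had inputs of 34.3 and 31.5 and IPs of 65.5 and 66.6, and its log2 fold of 1.01 was the lowest of any gene in the authors' deposited table. Dynll1 had inputs of 101 and 91.7, IPs of 230 and 219 and a log2 fold of 1.22 in the authors' deposited table. Dynll2 had inputs of 49.9 and 52.1, IPs of 158 and 157 and a log2 fold of 1.63 in the authors' deposited table. With Dynlrb1 at 2.32, 4 of the 5 dynein light chains lay below the median of the protein-coding genes, and Dynlt1 was the exception. The median of this group in the authors' deposited table was 1.63, from 1.01 to 3.01, so the paralogues Dynlt1 and Dynlt3 lay at opposite ends. The part of transcript length in this order was not tested.

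The larger dynein subunits lay higher. Their median log2 fold in the authors' deposited table was 2.65. Dync1li2 had inputs of 13.9 and 14.0 and IPs of 98.2 and 92.8, with a log2 fold of 2.78 and an FDR of 1.58e-207 in the authors' deposited table, the second smallest FDR of the 35. Dync1h1 had inputs of 8.74 and 10.6, IPs of 60.3 and 61.1 and a log2 fold of 2.65 in the authors' deposited table. Dync1i1, Dync1i2 and Dync1li1 had log2 folds of 2.72, 2.35 and 2.39 in the authors' deposited table.

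The dynactin subunits with a Dctn symbol had a median log2 fold of 2.51 in the authors' deposited table. Dctn3, Dctn4 and Dctn5 lay above the protein-coding median at 2.75, 2.74 and 2.70, and Dctn1, Dctn2 and Dctn6 below it at 2.32, 2.30 and 1.68, per the authors' deposited table. Dctn6, at the pointed end of the complex, had inputs of 18.8 and 18.1 and IPs of 59.0 and 59.5. Dctn3 showed the widest gap between pairs of the 35 genes, with a log2 ratio of 2.38 in pair 1 and 3.16 in pair 2, which is a difference of 0.78.

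All 5 kinesin-3 motors lay above the protein-coding median, with a median log2 fold of 2.74 in the authors' deposited table. Kif1a had inputs of 36.7 and 42.8 and IPs of 216 and 214, with a log2 fold of 2.44 in the authors' deposited table, and Kif1c had inputs of 5.99 and 6.17 and IPs of 38.6 and 42.9, with 2.74. Kif21a and Kif21b had log2 folds of 2.55 and 2.15 in the authors' deposited table.

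Among the kinesin-1 genes, Kif5a had inputs of 29.2 and 31.6, IPs of 154 and 155 and a log2 fold of 2.34 in the authors' deposited table. Kif5c had inputs of 20.3 and 21.8, IPs of 114 and 118, a log2 fold of 2.46 and an FDR of 1.39e-169 in the authors' deposited table, the smallest after Trak2 and Dync1li2. The neuronal heavy chains were therefore below Kif5b. Klc1 and Klc2 were close together, at 2.24 and 2.22 in the authors' deposited table.

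**Figure D4:**
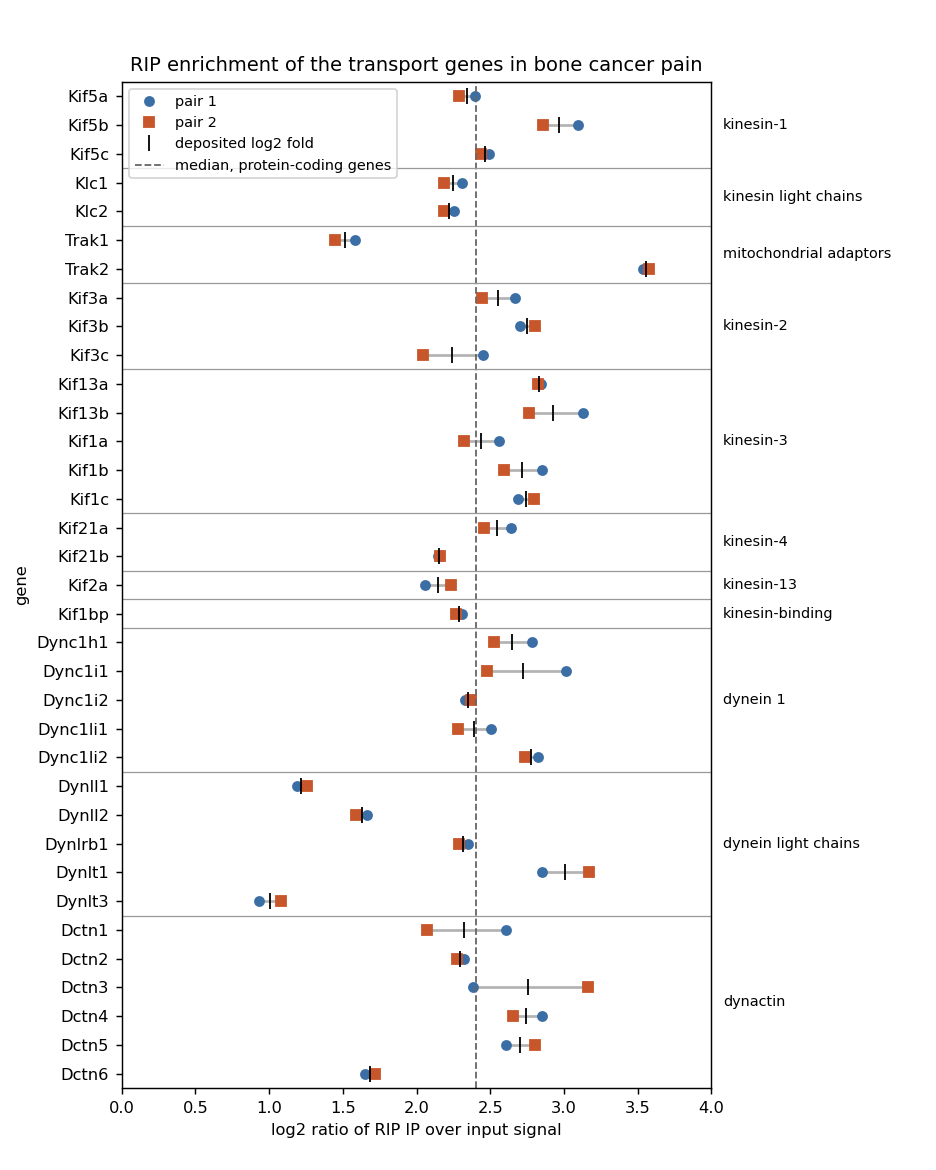
RIP enrichment of the 35 transport genes as the log2 ratio of IP over input signal. Rows are genes grouped by role, points are the ratios of pair 1 and pair 2 and the log2 fold of the authors' deposited table, and the vertical line is the median of the protein-coding genes at 2.40. Trak2 lies farthest to the right at 3.55 and Dynlt3 farthest to the left at 1.01.

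The 2 pairs gave close values for these genes. The median absolute difference between pairs was 0.14 on the log2 scale, against 0.24 for the protein-coding genes. Of the 35, 23 differed by less than 0.2, a share not computed for protein-coding genes. The part of input signal in the smaller difference was not tested. After Dctn3 the widest were Dctn1 (2.61 in pair 1 and 2.07 in pair 2) and Dync1i1 (3.01 and 2.48). The median log2 fold in the authors' deposited table was 2.46 for the 15 genes with a peak in at least 2 lists, 2.33 for the 8 with a peak in 1 list and 2.63 for the 12 without a peak, so RIP enrichment did not rank the genes by how often a peak was called.

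Adaptors and regulators of the motors were taken from a list of 48 symbols, of which 38 had a row. A peak was called in 25 of the 38 (65.8%, against 37.4% of protein-coding genes), and in at least 2 lists in 13 (34.2%, against 12.8%). A peak in at least 2 control lists was called in 5 of the 38, against 3.95% of protein-coding genes. In at least 2 pain lists it was called in 5 of the 38, against 4.05%. Snph, which anchors axonal mitochondria, had a peak in 2 control lists and in no pain list, and was the only one of the 38 called in 1 group alone (2.63%, against 1.75% called in control alone among protein-coding genes). Spag9, a scaffold that links kinesin-1 and dynein to vesicles, had a peak in 3 control and 3 pain lists, and Clstn1, a kinesin-1 cargo adaptor, in 3 control and 2 pain lists. The median log2 fold of the 38 in the authors' deposited table was 2.37, from 1.36 for the lysosomal adaptor Arl8b to 3.08 for Actr1a, the actin-related protein of the dynactin filament.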

How the data were processed

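Peak calls covered 12 ac4C libraries (3 IP and input pairs per group) and the RIP table covered 2 IP and 2 input libraries. The submitters' processing notes name the build rn6 and, with no role assigned, DESeq2, featureCounts 1.6.3, HOMER 4.10.4, HISAT2 2.1.0 and cutadapt 2.5. No source used here names the peak caller. Each peak has, per the file headers, a fold enrichment (a ratio) and the log10 of its p-value and FDR, and the deposited RIP table has a log2 fold change, a p-value, an FDR and one signal value per library. The unit of that signal is not stated in the file. The RIP table lists only genes past the authors' threshold, so IP against input was not tested again.

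Peaks were assigned to genes by the Ensembl identifier in the deposited lists, with an FDR of at most 0.05. A gene was called in a group with a peak in at least 2 of its 3 lists, and in one group alone if the other had none. Ratios per pair, counts and medians were computed with Python 3.11.15, pandas 2.3.3, NumPy 2.4.6 and matplotlib 3.10.9, and the counting was tested on simulated data. No test was run over the genes, and no p-value was made for the list. The sample titles call the ac4C libraries of both groups biological replicates, without saying how many animals stand behind each. The description labels of the RIP libraries only number the pairs, so the spread between those pairs may be technical. Alternatives were all peaks as deposited, an FDR of at most 0.01, a fold of at least 5, each list left out, a wider overlap, each RIP pair alone and a minimum input.

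The genes named with values are those with a peak in at least 2 lists, the 5 largest and 5 smallest RIP log2 folds, the 3 smallest RIP FDRs, and all kinesin-1, mitochondrial adaptor, dynein 1 and dynactin genes. Others are named where a count needed them, after their values were seen. The genes and lists were chosen with earlier results of these data known. Peak sequences were not used here.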

Additional observations from a re-analysis of the deposited data

How the results depend on the processing

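With all peaks as deposited, 13 genes instead of 6 had a peak in at least 2 pain lists, a count not made over protein-coding genes. In pain alone 4 were called instead of 1 (11.4%, against 11.6% of protein-coding genes). The mean per pain list was 13.7 instead of 8.0. This rise was general: pain list 1 then called 81.8% of protein-coding genes and 51.4% of the transport genes. Over all pairs of a gene and a pain list the shares were 37.4% and 39.0%. At an FDR of at most 0.01, 1 gene instead of 3 was called in control alone. With a fold of at least 5, 3 genes instead of 10 had a peak in at least 2 control lists. The means were then 5.67 per control list and 6.0 per pain list, so their order turned. Shares of protein-coding genes were not computed for these stricter limits, nor for the counts with a list left out. Leaving out each list in turn gave 3 to 10 genes in at least 2 control lists, 3 to 6 in at least 2 pain lists, 0 to 1 called in pain alone and 1 to 4 called in control alone. The group that lost a list was still held to 2 lists, so its own counts could only fall or stay the same. The mean per control list then ranged from 8.5 to 11.5. Under a wider overlap, of at least 50% of the shorter peak, 6 places instead of 7 were shared. All 35 genes passed a RIP FDR of 0.01, and the median log2 fold of 2.44 was at its lowest, 2.37, in pair 2 alone. No paired test was run, because peaks were only counted and the RIP fold and FDR are the authors' own. Each peak list already sets an IP against its own input, and ratios within each RIP pair are given.

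The lists hold called peaks only, with no read counts, so no interval can be given for a gene without a peak. With 3 lists per group no single gene can pass a test. The RIP libraries have no normal group, so they bear on no comparison between pain and control.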
